A study of Mus musculus with 6 samples.

Results

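Open chromatin was examined at the 8 Dlx and Gsx genes, Dlx1, Dlx2, Dlx3, Dlx4, Dlx5, Dlx6, Gsx1 and Gsx2, in mouse neural stem and progenitor cells (NSPCs). A region belonged to one of these genes when its strongest ATAC-seq summit lay at most 50 kb from a start site of that gene and no other protein-coding gene had a start site closer. The parent list held 30 such regions among 82885, and the ΔSRR2–18 list held 40 among 107480. ATAC-seq cuts accessible DNA with a transposase, and the deposited files list the intervals in which cuts pile up. The study compared 2 genotypes, each grown as 3 cultures, to ask how losing a Sox2 enhancer cluster alters accessible chromatin. Both were ESC-derived NSPC lines of a 129S1/Cast F1 hybrid and carried Sox2-mCherry on the 129 allele. The parent line, clone 5B, had no deletion, and the ΔSRR2–18 line, clone 47D, had lost the SRR2–18 cluster downstream of Sox2 on both alleles. Each line was 1 clone, so the deletion and the clone cannot be told apart.

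DLX proteins are homeodomain transcription factors related to Distal-less of Drosophila, and their genes lie in pairs that are transcribed towards each other. In the embryonic forebrain Dlx1, Dlx2, Dlx5 and Dlx6 are active in the ganglionic eminences, the ventral swellings that give rise to GABAergic interneurons and striatal neurons, whereas Dlx3 and Dlx4 are better known from epidermis, craniofacial tissue and placenta. GSX1 and GSX2 are homeodomain proteins of ventral forebrain progenitors that act upstream of the Dlx genes, and GSX2 sets the identity of the lateral ganglionic eminence. DNA between and around the paired Dlx genes is known to hold conserved forebrain enhancers.

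The cultures of a genotype stand in 1 pooled list, so no difference between genotypes carried a replicate error and none could be tested. All intervals given with values cover counting error only. The lowest local background, a gauge of pooled depth, was 38.8 reads for parent and 19.7 for ΔSRR2–18 NSPCs, a depth ratio of 1.98, and parent reads were divided by that ratio wherever the lists were set side by side. The deletion itself was visible: between 2 and 18 kb downstream of the Sox2 start the parent list held 4 regions and the ΔSRR2–18 list none. Start sites of all 7 neural progenitor markers examined (Sox1, Sox2, Nes, Vim, Fabp7, Msi1 and Cdh2) had a region in both lists. None of the 3 pluripotency markers (Pou5f1, Nanog, Zfp42) had one in either. Of the 4 neuronal genes, 2 had a start region in the parent list and 3 in the ΔSRR2–18 list, of the 3 mesoderm and endoderm genes 1 and 2, and of the 2 oligodendrocyte genes 1 in each. Over all protein-coding genes, 61.1% had a start region in the parent list and 64.6% in the ΔSRR2–18 list. Start regions are marks of open DNA and not of RNA.

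Of the 8 parent-only and 18 deletion-only regions at these genes, all but 1 lay more than 1 kb from a start site, the exception standing 441 bp upstream of Dlx6. The 121 bases centred on the strongest summits of the 5 parent-only regions of highest fold enrichment are given first, as DNA that stood in the conservative, stricter list of the parent genotype alone. Names give the gene and the summit's distance in bp from its start, minus meaning upstream, and sequences are mm10 reference, 5′ to 3′. Capitals mark exact matches, on either strand, to any of 8 short motifs: homeodomain TAATTA, AP-1 TGANTCA, SOX ACAATG, ZIC CAGCAGG, MEIS TGACAG, HOX-PBX TGATTNAT, GLI GGGTGGTC and octamer ATGCAAAT.
Gsx2 −12199 (chr5:75063342-75063462, + strand): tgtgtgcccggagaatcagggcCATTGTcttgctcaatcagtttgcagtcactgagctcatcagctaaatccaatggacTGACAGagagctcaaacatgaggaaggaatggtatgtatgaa
Gsx1 −33030 (chr5:147155606-147155726, + strand): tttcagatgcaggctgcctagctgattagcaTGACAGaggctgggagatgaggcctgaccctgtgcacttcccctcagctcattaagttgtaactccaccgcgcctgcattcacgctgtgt
Dlx3 +6580 (chr11:95126639-95126759, + strand): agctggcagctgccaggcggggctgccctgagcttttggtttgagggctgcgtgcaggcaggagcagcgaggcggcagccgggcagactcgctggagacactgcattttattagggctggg
Gsx2 +7067 (chr5:75082609-75082729, + strand): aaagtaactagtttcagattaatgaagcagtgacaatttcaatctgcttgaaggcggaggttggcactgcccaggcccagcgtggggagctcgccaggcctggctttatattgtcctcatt
Gsx2 −3684 (chr5:75071857-75071977, + strand): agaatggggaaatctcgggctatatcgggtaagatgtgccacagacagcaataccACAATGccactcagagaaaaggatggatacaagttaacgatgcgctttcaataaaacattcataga
A marked match was present in 3 of the windows. The window 12199 bp upstream of Gsx2 held SOX and MEIS letters, that 3684 bp upstream of Gsx2 held SOX letters, and that 33030 bp upstream of Gsx1 held MEIS letters.

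The corresponding windows of the 5 deletion-only regions of highest fold enrichment are the DNA in the ΔSRR2–18 conservative list alone.
Gsx2 −15269 (chr5:75060272-75060392, + strand): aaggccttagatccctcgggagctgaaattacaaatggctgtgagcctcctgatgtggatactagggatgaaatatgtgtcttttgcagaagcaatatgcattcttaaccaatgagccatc
Dlx2 −42515 (chr2:71589209-71589329, + strand): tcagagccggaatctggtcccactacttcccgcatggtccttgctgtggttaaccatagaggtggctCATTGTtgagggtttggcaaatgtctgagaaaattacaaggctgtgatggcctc
Dlx6 −32713 (chr6:6830561-6830681, + strand): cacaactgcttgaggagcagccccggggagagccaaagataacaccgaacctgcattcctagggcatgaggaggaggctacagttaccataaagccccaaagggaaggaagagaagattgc
Dlx2 −47973 (chr2:71594667-71594787, + strand): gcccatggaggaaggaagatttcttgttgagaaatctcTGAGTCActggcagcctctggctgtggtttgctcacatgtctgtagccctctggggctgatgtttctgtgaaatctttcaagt
Gsx1 −29287 (chr5:147159349-147159469, + strand): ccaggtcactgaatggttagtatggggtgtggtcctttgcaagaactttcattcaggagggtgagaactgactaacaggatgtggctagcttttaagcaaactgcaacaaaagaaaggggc
A SOX match stood 42515 bp upstream of Dlx2 and an AP-1 match 47973 bp upstream of the same gene. The other windows, at Gsx2, Dlx6 and Gsx1, held none of the 8 motifs within these 121 bases. A match is a run of letters and was not tested as a binding site.

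Of the 30 parent regions, 22 overlapped a region of the ΔSRR2–18 list by at least 1 bp and 8 did not. Of the 40 ΔSRR2–18 regions, 22 were shared and 18 were deletion-only. The shared regions formed 22 one-to-one pairs. The parent-only share was 26.7% (95% Wilson interval 14.2 to 44.4%), where 52.3% of all parent regions had no counterpart. The deletion-only share was 45.0% (30.7 to 60.2%), where 63.1% of all ΔSRR2–18 regions had none. Both member shares were therefore below the shares over all regions. Away from start sites, by more than 1 kb from any, 8 of 24 parent regions (33.3%) and 17 of 33 ΔSRR2–18 regions (51.5%) were specific, beside 61.6% and 71.5% of all such regions.

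The excess of deletion-only over parent-only regions was not kept when the ΔSRR2–18 list was cut to the parent's length by fold enrichment. The length of the list and the measure used to cut it cannot be told apart here. When the ΔSRR2–18 list was shortened to its 82885 regions of highest fold enrichment, which left out all below 6.58, it held 23 member regions. Then 16 parent regions and 9 ΔSRR2–18 regions were specific, and the order turned. A parent region counted as specific here can overlap a deposited ΔSRR2–18 region that the cut left out. The shares were 53.3% and 39.1%, beside 60.0% and 60.2% of all regions in these lists of equal length. At the Dlx3/Dlx4 pair the specific counts went from 2 parent-only and 4 deletion-only to 6 and 1, and at Dlx1/Dlx2 from 0 and 4 to 2 and 2. At Dlx5/Dlx6 they went from 1 and 7 to 2 and 3.

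**Figure D1:**
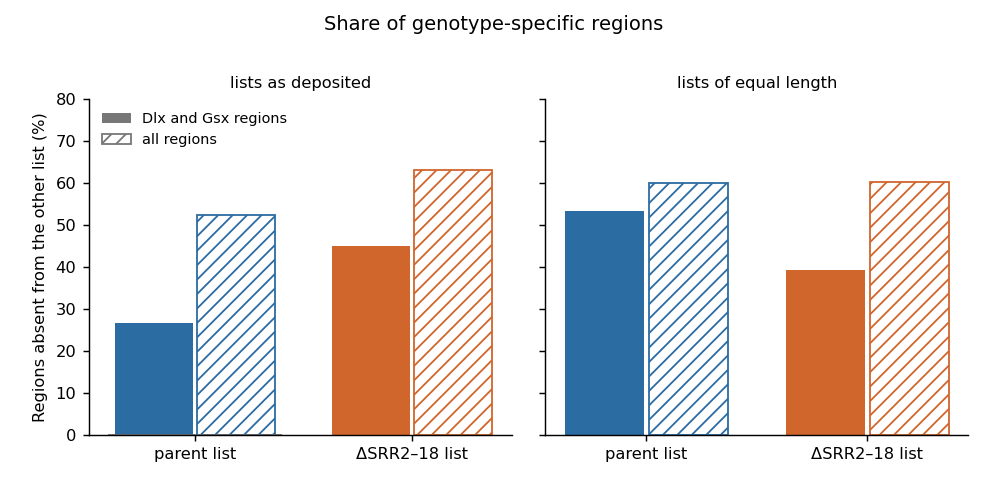
Share of regions (%, vertical axis) with no overlap in the other genotype's list, for the Dlx and Gsx regions (filled bars) and all regions (hatched bars), with the lists as deposited (left) and at equal length (right). The member shares of 26.7% and 45.0% on the left become 53.3% and 39.1% on the right, so the taller filled bar changes sides.

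By place, 19 of the 30 parent regions were intergenic, 4 lay in introns, 6 in untranslated exon sequence and 1 in a coding exon. Of the 40 ΔSRR2–18 regions, 23 were intergenic, 10 intronic, 4 untranslated and 3 coding. Gene by gene, parent and ΔSRR2–18 lists held 3 and 4 regions at Dlx1, 3 and 6 at Dlx2, 8 and 8 at Dlx3, and 2 and 4 at Dlx4. They held 4 and 6 at Dlx5, 2 and 6 at Dlx6, 3 and 3 at Gsx1, and 5 and 3 at Gsx2. Gsx2 was the gene with more regions in the parent list than in the ΔSRR2–18 list, and it had the fewest shared regions together with Dlx6, 1 each.

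**Figure D2:**
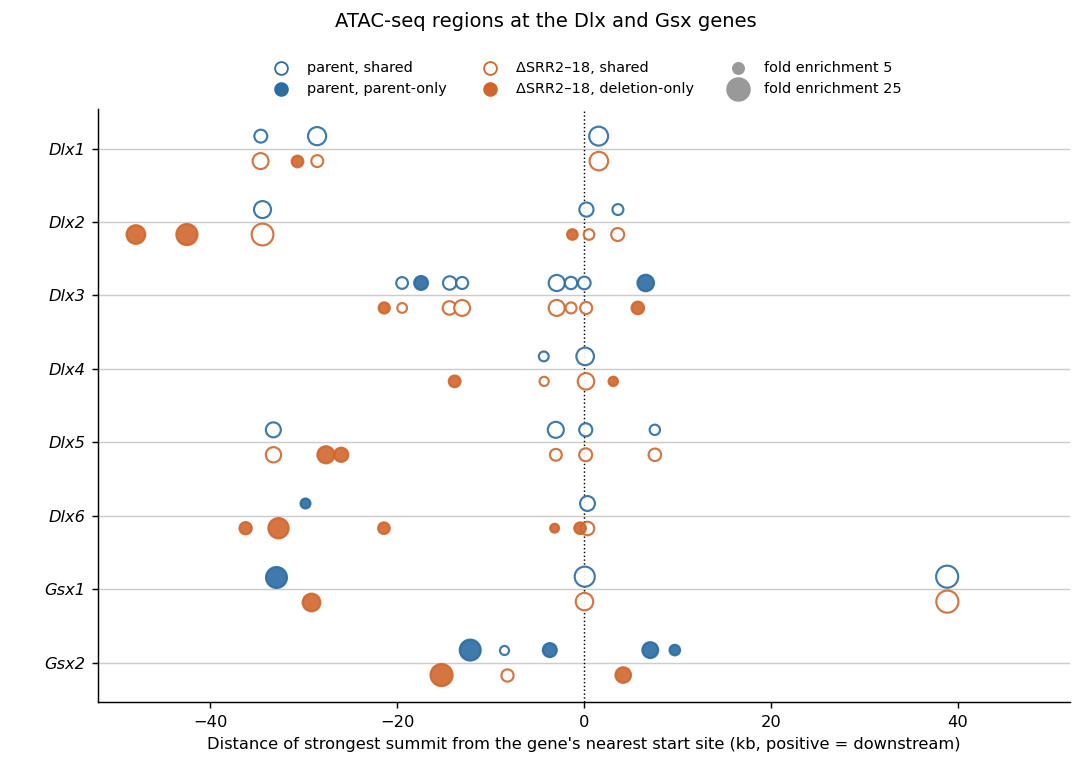
Position of every Dlx and Gsx region (horizontal axis, kb from the gene's nearest start site, positive downstream), by gene, with parent regions above each line in blue and ΔSRR2–18 regions below in orange. Open circles are shared regions, filled circles genotype-specific ones, and area grows with fold enrichment; of the 18 filled orange circles 7 stand at Dlx5 and Dlx6, and of the 8 filled blue circles 4 stand at Gsx2, on both sides of its start.

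At the Dlx1/Dlx2 pair on chromosome 2 (Dlx1 at chr2:71528113-71533981, + strand, and Dlx2 at chr2:71543408-71546754, − strand), the start regions of both genes had fewer depth-scaled reads in ΔSRR2–18 NSPCs. Regions far upstream of Dlx2 but within 50 kb were higher in ΔSRR2–18 NSPCs or stood in that list alone. The next region, beyond 50 kb, had a fold enrichment of 25.7 in the parent list and 9.39 in the ΔSRR2–18 list. All 6 parent regions were shared, and 4 of the 10 ΔSRR2–18 regions were deletion-only. DLX1 and DLX2 are the DLX factors of early ventral progenitors.

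The strongest parent region of the pair by reads, 1542 bp downstream of the annotated Dlx1 start, had 5416 summit reads in the parent list, which is 2741 at the ΔSRR2–18 depth, and 1202 in the ΔSRR2–18 list. The log2 ratio was −1.19 (95% counting interval −1.28 to −1.10). In bulk cultures, fewer cells with the DNA open and less opening per cell cannot be told apart. Its summit stood in the Dlx1 5′ untranslated exon in GENCODE, and 210 bp downstream of the start that RefSeq gives to Dlx1, so it is a start region by the second annotation. The region over the Dlx2 start had 2267 parent summit reads (1147 scaled) and 500 in ΔSRR2–18 NSPCs, a log2 ratio of −1.20 (−1.34 to −1.06). The strongest summits of that pair were 280 bp apart, at 235 bp in the parent list and 515 bp in the other, so the values come from separate positions in 1 region. The local background around the summit had a log2 ratio of −0.18 at Dlx2 and −1.14 at Dlx1. Of all shared pairs, 12.6% had a summit read ratio as low as that of Dlx1 or lower, and 12.4% as low as that of Dlx2 or lower. Over all start pairs the median log2 ratio was −0.45, with quartiles of −0.77 and −0.14.

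Upstream, the lowest ratio among the 22 pairs stood 28584 bp before Dlx1, in an intron of the neighbouring gene Metap1d. Its summit reads were 1541 in the parent list (780 scaled) and 121 in the ΔSRR2–18 list, a log2 ratio of −2.69 (−2.96 to −2.42), lower than all but 1.81% of shared pairs genome-wide. Another Metap1d intron region, 34609 bp before Dlx1, had 179 scaled parent reads and 379 in ΔSRR2–18 NSPCs, a log2 ratio of 1.08. The region 30736 bp before Dlx1 was called deletion-only, with 213 reads, but the parent's less strict list held it with 470 reads, 238 scaled, a ratio of ΔSRR2–18 to parent reads of 0.895 (0.762 to 1.05), whose interval spans 1.

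Upstream of Dlx2 the ΔSRR2–18 list held strong regions in an intergenic stretch. The region 42515 bp upstream had 1571 summit reads and a fold enrichment of 21.4, within the top 8.76% of that list. The region 47973 bp upstream had 1509 reads and a fold enrichment of 16.4, within the top 23.0%. Neither overlapped any parent region, in the less strict list included. A weaker deletion-only region stood 1269 bp upstream of Dlx2, with 366 reads and a fold enrichment of 4.33. Nearer than the strong pair, a shared region 34425 bp upstream had 270 scaled parent reads and 639 in ΔSRR2–18 NSPCs, a log2 ratio of 1.24 (1.08 to 1.41). Between the convergent genes, just past the Dlx2 end, a shared region 3606 bp from the Dlx2 start had 616 scaled parent reads and 988, a log2 ratio of 0.68 (0.56 to 0.80). Thus within 1 gene pair, 3 shared regions were at least 2-fold lower, 2 were at least 2-fold higher, and 1 lay between.

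At the Dlx5/Dlx6 pair on chromosome 6 (Dlx6 at chr6:6863334-6868568, + strand, and Dlx5 at chr6:6877805-6882085, − strand), the region over each start site was shared, with somewhat more depth-scaled reads in ΔSRR2–18 NSPCs. Most further regions of the ΔSRR2–18 list were deletion-only, among them 1 within 1 kb of the Dlx6 start. The ΔSRR2–18 list held 12 regions, 7 of them deletion-only, and the parent list 6, with 1 parent-only. DLX5 and DLX6 act mainly after DLX1 and DLX2, as cells leave the progenitor zone, and the noncoding gene Dlx6os1 runs antisense across the locus.

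The Dlx5 start region had 536 parent summit reads (271 scaled) and 369 in ΔSRR2–18 NSPCs, a log2 ratio of 0.44 (0.25 to 0.64). The Dlx6 start region, with its summit in the first coding exon, had 638 (323 scaled) and 471, a log2 ratio of 0.54 (0.37 to 0.72). These read ratios had the opposite sign to those at Dlx1 and Dlx2. The local background was higher too, 1.38-fold at Dlx5 and 1.81-fold at Dlx6. By fold enrichment both ranked lower in the ΔSRR2–18 list, from the top 64.6% to 72.0% at Dlx5 and 49.5% to 66.4% at Dlx6. A region 441 bp upstream of Dlx6, in an intron of Dlx6os1, was deletion-only with 331 reads, and the parent's less strict list held its counterpart with 115 scaled reads (ratio 2.88, 2.43 to 3.41). The region between the convergent genes, 7554 bp into the stretch downstream of the Dlx5 start, had 163 parent reads (82.5 scaled) and 200, a log2 ratio of 1.28 (0.98 to 1.58), the highest of the 22 pairs. It ranked in the lowest 10% of the parent list by fold enrichment, at 4.12.

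All 5 deletion-only regions of Dlx6 lay upstream of its start within introns of Dlx6os1. The strongest, 32713 bp upstream, had 792 reads and a fold enrichment of 19.6, within the top 13.1% of the list. The others, 36233, 21433, 3168 and 441 bp upstream, had fold enrichments of 6.33, 5.52, 2.69 and 5.55. The parent-only region of Dlx6, 29894 bp upstream in the same gene's intron, was weak, with 146 reads and a fold enrichment of 3.69. Upstream of Dlx5, deletion-only regions stood at 27637 bp, with 594 reads, and 26009 bp, with 393. The parent's less strict list held the first with 71.9 scaled reads, 8.27-fold (6.88 to 9.93) below the ΔSRR2–18 value. Shared regions upstream of Dlx5 were level at 33267 bp (log2 ratio 0.11, −0.13 to 0.35) and lower in ΔSRR2–18 NSPCs at 3041 bp (−0.62, −0.83 to −0.40).

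At the Dlx3/Dlx4 pair on chromosome 11 (Dlx3 at chr11:95120119-95125296, + strand, and Dlx4 at chr11:95140447-95146263, − strand), 8 of 10 parent and 8 of 12 ΔSRR2–18 regions were shared. Their log2 ratios went both ways, from −0.65 to 1.06, with a median of −0.01. The Dlx3 start region had 377 scaled parent reads and 355 (log2 ratio −0.09, −0.27 to 0.10), and the interval spanned 0. The Dlx4 start region had 1880 parent reads (951 scaled) and 710, a log2 ratio of −0.42 (−0.55 to −0.30), close to the median of −0.45 over all start pairs. Regions upstream of Dlx3 were level at 2939 bp (0.06) and higher in ΔSRR2–18 NSPCs at 13061 bp (1.06), 14392 bp (0.21, 0.03 to 0.40) and 19489 bp (0.92). Lower in ΔSRR2–18 NSPCs were the regions 1413 bp upstream of Dlx3 (−0.33, −0.53 to −0.13) and 4327 bp upstream of Dlx4 (−0.65, −0.92 to −0.37). At the one 19489 bp upstream of Dlx3 the local background was 3.11-fold higher too.

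Between Dlx3 and Dlx4 each list held its own region in the stretch past the Dlx3 end. The parent-only one, 6580 bp from the Dlx3 start, had 579 reads (293 scaled) and a fold enrichment of 12.5, and the ΔSRR2–18 less strict list held it with 107 reads (ratio 2.74, 2.23 to 3.37). The deletion-only one, at 5739 bp, had 181 reads and a fold enrichment of 6.70. The other parent-only region, 17458 bp upstream of Dlx3, had 711 reads and a fold enrichment of 8.41. The other deletion-only regions of the pair, 21402 bp upstream of Dlx3 and 13867 bp upstream and 3108 bp downstream of the Dlx4 start, had fold enrichments of 5.02, 5.66 and 3.12.

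Gsx1 (chr5:147188696-147190947, + strand) had 3 regions in each list. Its start region was lower in ΔSRR2–18 NSPCs, its most distant region was nearly level, and an upstream region differed most. The start region had 2843 parent summit reads (1439 scaled) and 662 in ΔSRR2–18 NSPCs, a log2 ratio of −1.12 (−1.24 to −0.998), and its background was lower as well (0.61-fold by ratio). Of all shared pairs, 14.0% had a read ratio as low or lower. The region 38837 bp downstream, which lies nearer to the Gsx1 start than to that of Pdx1, a pancreatic and duodenal homeobox gene, had 576 scaled parent reads and 487. Its log2 ratio of −0.24 equalled the median of all shared pairs, and it was within the top 3.31% and 4.71% of the lists by fold enrichment.

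The parent-only region 33030 bp upstream of Gsx1 had 5965 summit reads, the highest of all member regions, and stood within the highest 1.32% of its list by −log10 p. The ΔSRR2–18 conservative list had no region there. Its less strict list held 157 reads, against 3019 scaled parent reads, a 19.2-fold difference (16.4 to 22.5). In that intergenic stretch, a deletion-only region stood 29287 bp upstream with 400 reads and a fold enrichment of 14.7, and it did not overlap any parent region of either list. The upstream DNA of Gsx1 thus held 1 specific region per genotype, with more depth-scaled reads in the parent one.

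Gsx2 (chr5:75075601-75077893, + strand) had no region within 1 kb of its start in either conservative list, where 61.1% of 21924 protein-coding genes had one in the parent list and 64.6% in the ΔSRR2–18 list. The other 7 genes had a region over a start site, counting Dlx1 by its RefSeq start. The less strict ΔSRR2–18 list held a region 143 bp into Gsx2 with 131 reads and a fold enrichment of 3.75, and the less strict parent list none. Of the parent's 5 regions 4 were parent-only, and of the 3 ΔSRR2–18 regions 2 were deletion-only.

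The parent-only region 12199 bp upstream of Gsx2 had 844 reads (427 scaled) and a fold enrichment of 21.1, in the top 7.32% of the parent list. That 7067 bp downstream had 904 reads (458 scaled), that 3684 bp upstream 419 reads (212 scaled), and that 9692 bp downstream 304 reads (154 scaled). None of the 4 had a counterpart in either ΔSRR2–18 list. The deletion-only region 15269 bp upstream had 484 reads and a fold enrichment of 23.5, in the top 4.91% of that list, with no counterpart in either parent list. The other, 4174 bp downstream, had 376 reads, and the less strict parent list held it with 171 scaled reads (ratio 2.20, 1.90 to 2.55). The single shared region, 8624 bp upstream by its parent summit, had 92.6 scaled parent reads and 159, but its strongest summits were 314 bp apart. Gsx2 was thus flanked by intergenic regions that differed between the lists in position and not only in height.

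To show the DNA at the start sites discussed, the 250 bases upstream of the RefSeq start are given for the genes whose sequence was at hand, from the GRCm38.p6 table, 5′ to 3′ on the gene's strand. Of the 8 genes 4 were matched in that table. Dlx1 is not printed because its stretch is untranslated exon sequence in GENCODE. Capitals mark CpG dinucleotides.
Dlx2 (chr2:71546755-71547004, − strand): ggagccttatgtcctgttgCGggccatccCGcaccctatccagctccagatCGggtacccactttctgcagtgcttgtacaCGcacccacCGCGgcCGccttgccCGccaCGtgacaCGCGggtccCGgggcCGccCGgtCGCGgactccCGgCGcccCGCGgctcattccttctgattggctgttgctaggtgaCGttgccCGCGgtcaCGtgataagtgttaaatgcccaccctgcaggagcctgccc
Gsx1 (chr5:147188446-147188695, + strand): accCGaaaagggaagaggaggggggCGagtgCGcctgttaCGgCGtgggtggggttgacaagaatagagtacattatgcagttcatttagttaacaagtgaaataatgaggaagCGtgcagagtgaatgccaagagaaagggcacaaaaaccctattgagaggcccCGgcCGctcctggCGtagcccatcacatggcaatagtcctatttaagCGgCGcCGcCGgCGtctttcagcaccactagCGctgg
Gsx2 (chr5:75075351-75075600, + strand): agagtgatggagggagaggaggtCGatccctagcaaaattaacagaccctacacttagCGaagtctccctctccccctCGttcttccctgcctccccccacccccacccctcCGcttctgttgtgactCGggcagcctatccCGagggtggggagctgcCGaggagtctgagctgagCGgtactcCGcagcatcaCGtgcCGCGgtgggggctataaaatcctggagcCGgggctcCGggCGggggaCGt
The Dlx2 stretch held 24 CpGs, that of Gsx2 16 and that of Gsx1 15, where the median over 32851 promoters was 6 (quartiles 2 and 16). The Gsx2 and Gsx1 stretches were thus alike in CpG number. They differed in GC content, 63.6% and 54.0%, and in the ratio of observed to expected CpGs, 0.63 and 0.85. The Gsx1 start had a conservative region in both lists and the Gsx2 start in neither, and a link to CpG content was not tested. None of the 8 motifs matched in these 3 stretches, and the shares of all promoters with a match were 4.84% for homeodomain, 6.75% for AP-1, 10.7% for SOX, 8.44% for ZIC, 15.9% for MEIS, 2.82% for HOX-PBX, 0.70% for GLI and 1.60% for octamer letters.

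Over the 22 shared pairs the median log2 ratio was 0.09, with 9 pairs below and 13 above the median of −0.24 over all 40114 shared pairs. At least 2-fold lower in ΔSRR2–18 NSPCs were 4 of the 22, and at least 2-fold higher 4. Over all shared pairs 16.5% were at least 2-fold lower and 16.0% at least 2-fold higher. The pairs that were lower were the Dlx1, Dlx2 and Gsx1 start regions and the one 28584 bp upstream of Dlx1. The pairs that were higher lay 34609 bp upstream of Dlx1, 34425 bp upstream of Dlx2, 13061 bp upstream of Dlx3 and between Dlx5 and Dlx6. Scaling instead by the median of all shared pairs moves each ratio up by 0.24 and gave 1 pair at least 2-fold lower, that 28584 bp upstream of Dlx1, and 6 at least 2-fold higher, beside 11.8% and 19.4% of all shared pairs. The balance of 4 and 4 thus depended on the scaling. The start regions of Dlx1, Dlx2 and Gsx1 then stood at −0.95, −0.96 and −0.88, short of 2-fold, and that of Dlx3 turned from −0.09 to 0.15. The regions 19489 bp upstream of Dlx3 and 8624 bp upstream of Gsx2 passed 2-fold at 1.16 and 1.02.

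**Figure D3:**
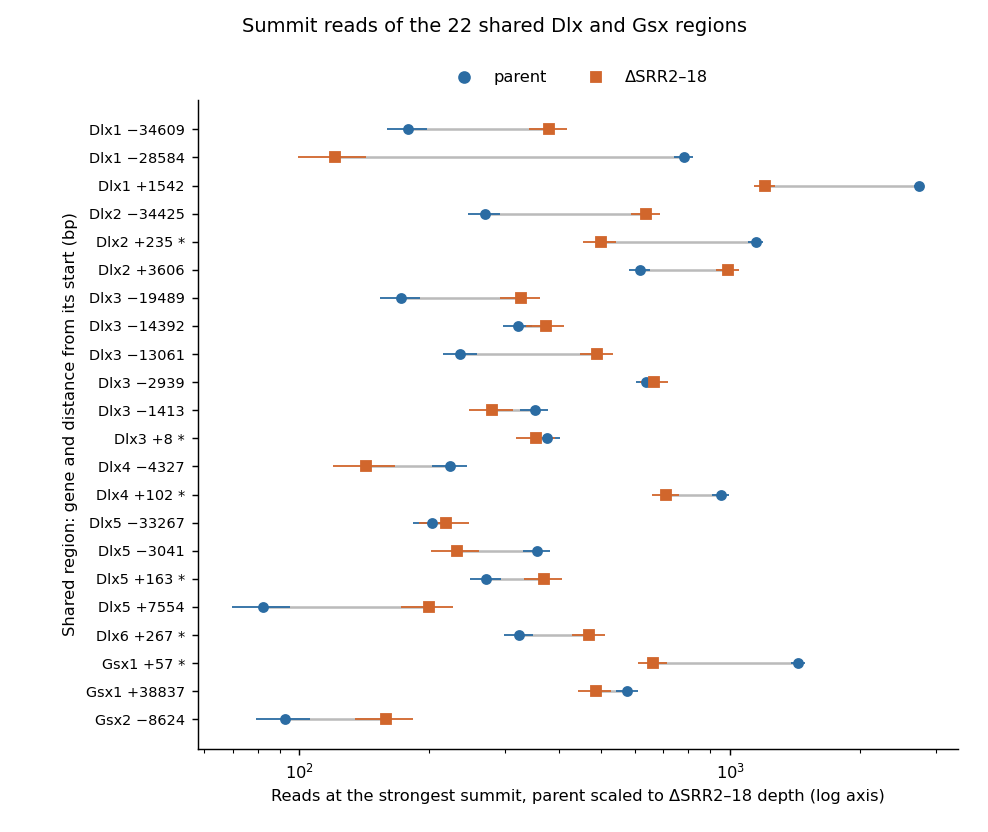
Reads at the strongest summit of each shared region (horizontal log axis) in the parent list, scaled to the ΔSRR2–18 depth (blue circles), and in the ΔSRR2–18 list (orange squares), with 95% counting intervals as bars. Names give gene and distance in bp, and asterisks mark summits within 1 kb of a start; the widest gap is 28584 bp upstream of Dlx1, from 780 to 121 reads.

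By locus, the median log2 ratio was −0.25 for the 6 Dlx1/Dlx2 pairs, −0.01 for the 8 Dlx3/Dlx4 pairs and 0.44 for the 5 Dlx5/Dlx6 pairs. The Gsx1 pairs stood at −1.12 and −0.24 and the Gsx2 pair at 0.78. By GENCODE starts, the 6 start pairs had a median of −0.25 and ranged from −1.20 to 0.54. The 16 pairs away from starts had a median of 0.16. These 16 include the Dlx1 region at 1542 bp, with a ratio of −1.19, whose strongest summit makes it a start region by RefSeq alone. Counting it as a start pair would lower the start median. Over all shared pairs the medians were −0.45 at start sites and 0.00 away from them. On the chromosomes of these genes the median over all pairs lay between −0.29 and −0.24.

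**Figure D4:**
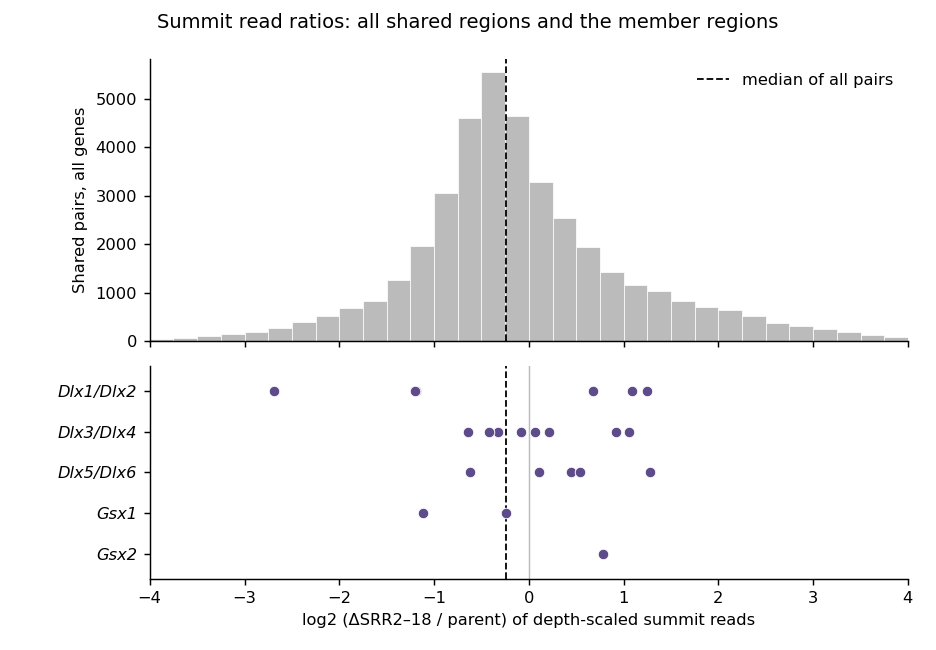
Number of shared pairs (top, vertical axis) by log2 ratio of depth-scaled summit reads, ΔSRR2–18 over parent (horizontal axis), with the ratios of the member pairs by locus below. The dashed line is the median of all pairs, −0.24; Dlx1/Dlx2 pairs spread from −2.69 to 1.24, whereas Dlx3/Dlx4 pairs lie between −0.65 and 1.06.

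By fold enrichment within their own list, 6 of the 22 shared regions ranked higher in the ΔSRR2–18 list than in the parent list. By −log10 p 10 did, and by summit reads 11. The drop in rank by fold enrichment had a median of 4.71 percentage points, and by summit reads the median turned to −1.20, so no common direction in rank was held by both measures.

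Motif letters within 100 bp of the strongest summit were counted for the member regions. AP-1 letters stood in 6 of 18 deletion-only regions (33.3%, 16.3 to 56.3%), where 50.7% of all deletion-only regions held them. They were in the regions 42515 and 47973 bp upstream of Dlx2, 36233 and 21433 bp upstream of Dlx6, 5739 bp downstream of the Dlx3 start and 4174 bp downstream of the Gsx2 start. Among the 8 parent-only regions 1 had AP-1 letters (12.5%), beside 4.59% of all parent-only regions. SOX letters stood in 2 of the 8 (25.0%, 7.15 to 59.1%), beside 16.7%, both upstream of Gsx2, and in 1 of the 18 deletion-only regions (5.56%), beside 12.0%. The homeodomain core, which DLX and GSX proteins bind, was in none of the 8 parent-only or 18 deletion-only regions, where 6.90% and 2.69% of all such regions held it, and a count of 0 in 18 allows a share of up to 17.6%. It stood in 2 of the 22 shared parent regions (9.09%, 2.53 to 27.8%), beside 2.68% of all shared parent regions. These 2 lay over the Dlx2 start and 28584 bp upstream of Dlx1, the pair of lowest ratio. Around the ΔSRR2–18 summits of the same pairs, 1 of 22 held the core. That was the one upstream of Dlx1, and the Dlx2 start region had no match there. Octamer letters were in 2 of 8 parent-only regions, 33030 bp upstream of Gsx1 and 9692 bp downstream of Gsx2, beside 3.12% of all. Of the member shares given here, that of octamer letters was the one whose interval (7.15 to 59.1%) left out the share over all regions. It rests on 2 regions and is the one picked out of 8 motifs, so it is not a test. Within 50 bp of the summit the octamer count was 1 of 8, and that of the homeodomain core in shared parent regions 1 of 22.

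Genes around the Dlx and Gsx factors in ventral forebrain development were counted by the same rule. The 20 genes had 105 parent regions, 53 of them parent-only (50.5%), and 131 ΔSRR2–18 regions, 79 of them deletion-only (60.3%), shares close to the 52.3% and 63.1% over all regions. More deletion-only than parent-only regions stood at 12 of the genes and fewer at 6. Over the whole lists deletion-only regions also outnumbered parent-only ones, 67794 to 43385. Among upstream and partner factors, Gli3, a transcription factor of hedgehog signalling, counted 3 parent-only against 10 deletion-only regions, and Sp8, a zinc finger factor of the lateral ganglionic eminence, 1 and 6. Shh, the ventralizing ligand, went the other way with 4 and 2, as did Otx2 with 5 and 2. Nkx2-1, which marks the medial ganglionic eminence, had 0 and 2, Six3 4 and 4, Vax1 2 and 3, Meis2 5 and 6 and Sp9 2 and 1.

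Of the dorsal counterparts, Pax6 stood at 4 and 2 and Emx2 at 1 and 3. Among targets and later genes, Gad2, a GABA-synthesizing enzyme gene, had 0 and 7, and Gad1, which encodes the other, 2 and 4. The interneuron and cholinergic factor genes Lhx6 and Lhx8 had 2 and 2, and 0 and 4. Slc32a1, the vesicular GABA transporter gene, had 1 and 0, and Isl1 0 and 3. Ebf1, a striatal factor gene, had 7 and 4, Zeb2 5 and 7, and Nrp2 5 and 7. A start region was present at 14 of the 20 genes in the parent list and 18 in the ΔSRR2–18 list, beside 61.1% and 64.6% of all protein-coding genes.

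**Figure D5:**
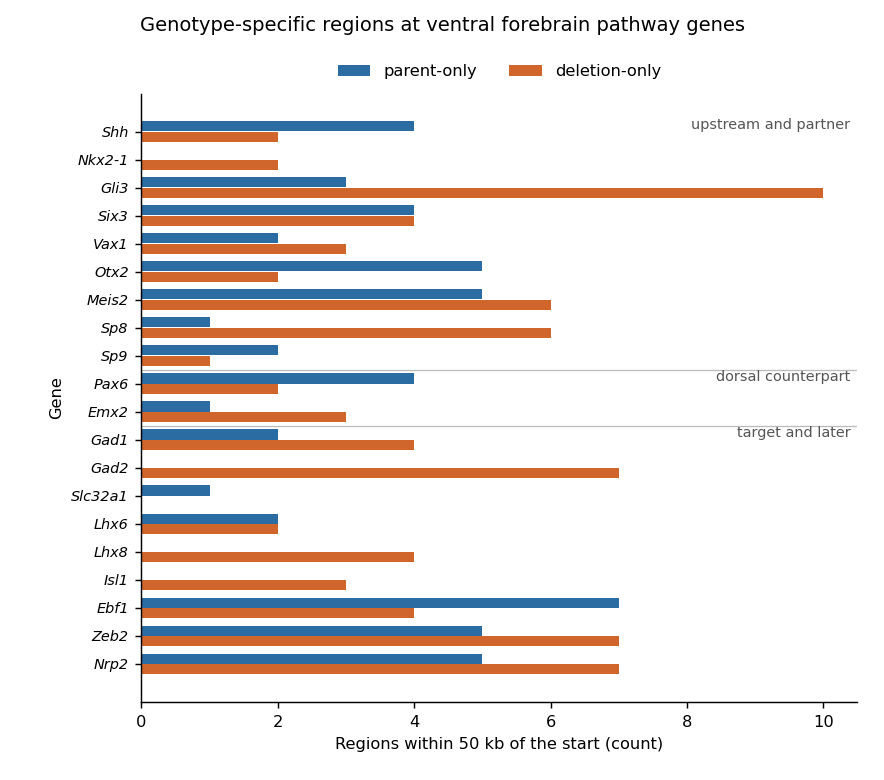
Number of parent-only (blue) and deletion-only (orange) regions within 50 kb of each of 20 ventral forebrain pathway genes (horizontal axis, count), grouped by role. Gli3 (3 and 10) and Gad2 (0 and 7) have the widest excess of deletion-only regions, and Ebf1 (7 and 4) and Otx2 (5 and 2) the widest of parent-only ones.

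The 50 kb limit cut through a run of regions upstream of Dlx2, so what is said of that run holds inside the limit only. The farthest member region inside it was 47973 bp upstream of Dlx2 in the ΔSRR2–18 list, with a fold enrichment of 16.4, and 38837 bp downstream of Gsx1 in the parent list, with 23.5. The nearest outside stood upstream of Dlx2, at −52277 bp in the parent list and −52270 bp in the ΔSRR2–18 list, with fold enrichments of 25.7 and 9.39. In all, 11 parent and 16 ΔSRR2–18 regions had a member gene as nearest start but lay beyond the limit, 8 and 16 of them upstream of Dlx2.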

How the data were processed

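ATAC-seq libraries came from 3 parent and 3 ΔSRR2–18 NSPC cultures, which the labels give as 30000 cells and 11 to 14 PCR cycles each. Reads were run by the authors through the ENCODE ATAC-seq pipeline in mm10, where MACS2 calls peaks and IDR merges the cultures of each genotype. The 4 deposited lists give per peak an IDR score, a fold enrichment (ratio over local background), a −log10 p and an unused −log10 q, and a summit offset (other). Duplicate and blacklist settings for these lists were not given in the sources used here. F1 reads from the Cast allele can map less often, and alleles are not separated.

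Conservative lists (134705 parent and 168170 ΔSRR2–18 peaks) were used, and optimal lists, called less strict, as an alternative. Intervals were taken once, with the summit of highest fold enrichment. Summit reads and background were solved from fold enrichment and −log10 p by the Poisson model, giving whole numbers within 0.05 for 99.9993% of parent and 100% of ΔSRR2–18 peaks. Both come from the reads of the same list, so a background ratio is not independent of a read ratio. Depth per culture was not recovered. Start sites were those of GENCODE M21 basic, with regions whose strongest summit lay within 1 kb called start regions. Start counts for markers, pathway genes and all protein-coding genes took any summit within 1 kb. By any summit, Dlx1 had 1 within 1 kb of its GENCODE start in the ΔSRR2–18 list and 0 in the parent list. Regions named with values were those at starts or between paired genes, and the 5 specific ones of highest fold enrichment per genotype. Others were named after their values were seen. Overlap was 1 bp or more. Members, gene lists (markers, pathway) and motifs were chosen with earlier results of these data known. Some genes of the pathway list are not reported here and are left out of its counts. No test was possible. Steps were tested on simulated data. Python 3.11.15, numpy 2.4.6, pandas 2.3.3 and scipy 1.17.1 were used.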

Additional observations from a re-analysis of the deposited data

Results flagged for a closer look

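The less strict lists, used in the report to look up counterparts of specific regions and as an alternative, held further regions at these genes: 7 in the parent list and 8 in the ΔSRR2–18 list that the conservative list of that genotype lacked. They were weak. The parent ones had fold enrichments of 2.84 (Dlx5, +3388 bp from the start) to 5.44 (Gsx2, −4710 bp), and the ΔSRR2–18 ones 2.35 (Dlx2, −46914 bp) to 6.34 (Dlx6, −22099 bp). At Gsx2, at −4710 bp (parent) and −4722 bp (ΔSRR2–18), and at Dlx5, at 3388 and 3404 bp, both genotypes had such a region. The Gsx2 start had one in the ΔSRR2–18 list alone, with a fold enrichment of 3.75, at 143 bp. No control sample without transposition was analysed here, and these values were not tested.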

How the results depend on the processing

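No paired analysis was possible because each genotype has 1 pooled list, which also prevents leaving out a culture. Parent regions, ΔSRR2–18 regions, parent-only and deletion-only regions numbered 30, 40, 8 and 18. A limit of 10 kb gave 18, 20, 4 and 6. Start sites of all genes, noncoding ones included, gave 10 deletion-only regions. Lists of equal length, cut by fold enrichment, gave 23 ΔSRR2–18 regions, 16 parent-only and 9 deletion-only, which turned the order of the specific counts. The median drop in rank of 4.71 percentage points by fold enrichment became −1.20 by summit reads. At 10 kb the pathway genes had 16 parent-only and 27 deletion-only regions, in place of 53 and 79. Scaling by the median of all shared pairs left 1 of the 4 pairs at least 2-fold lower and gave 6 higher in place of 4. A motif window of 50 bp lowered octamer letters in parent-only regions and the homeodomain core in shared parent regions from 2 to 1 each, and the latter was also 1 among regions over 1 kb from any start. The cause was not tested beyond the construction of each setting. The less strict lists, a stricter IDR score of 830, other overlaps, a −log10 p of at least 20 after depth scaling, other pairings and, for the AP-1 and SOX counts, the 50 bp window kept the other counts within 1.5 times. Pooling and the lists' unequal depth, gauged by background alone, limit every comparison.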
